A study of Mus musculus with 10 samples.

Results

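The 6 genes described here are *Axl*, *Mertk* and *Tyro3*, the 3 TAM receptor tyrosine kinases, and *Gas6*, *Pros1* and *Mfge8*, the 3 bridging ligands of efferocytosis, the uptake of dying cells. They were chosen by gene symbol, and all 6 were found among the 25233 genes with a symbol. Expression was measured by bulk RNA-seq in 5 preparations of hypertrophied hepatic stellate cells (hypHSC) and 5 of quiescent hepatic stellate cells (qHSC), the retinoid-storing pericytes of the liver. The hypHSCs came from male C57BL/6J mice fed a high-fat diet deficient in choline (CDAHFD), which causes steatohepatitis with fibrosis. hypHSC 1 and 2 were taken after 13 weeks of diet at 19 weeks of age, and hypHSC 3, 4 and 5 after 12 weeks of diet at 18 weeks of age. The qHSCs came from male C57BL/6J mice on a standard diet, at 36 weeks of age for qHSC 1, 2 and 5 and at 34 weeks for qHSC 3 and 4. Both kinds of cell were enriched on a density gradient and sorted by their own fluorescence, with the gate on blue light for qHSCs and on green light for hypHSCs. Diet, age, strength of the enzymatic digestion, antibiotics in the buffers and sorting gate changed together, so their effects cannot be told apart in these libraries. The antibiotics were added for livers of CDAHFD mice only. The hypHSC preparations were selected for RNA quality from a set with fewer mice than samples, so n counts preparations, and p-values measure the spread between preparations only.

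A dying cell displays phosphatidylserine on its surface. GAS6 and protein S (encoded by *Pros1*) bind this lipid through a domain made of vitamin K-dependent γ-carboxylated residues and present it to the TAM receptors, whereas MFG-E8 (encoded by *Mfge8*) presents it to integrins. GAS6 binds all TAM receptors, and protein S binds MERTK and TYRO3. In the liver MERTK is best known from macrophages, and GAS6 and AXL have been studied in both Kupffer cells and stellate cells.

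The RNA of the libraries did not match the stellate cell label equally in the 2 groups. Summed over 17 markers of quiescent stellate cells, normalized counts (reads divided by the size factor of the library) were 33167 to 63517 in hypHSCs and 1376897 to 2276681 in qHSCs, and 16 of the 17 were called lower in hypHSCs. *Lrat*, the retinol esterifying enzyme that defines the cell, was at 476 to 2312 against 74761 to 136938, and *Des*, which encodes desmin, at 27.2 to 294 against 2381 to 3169. Of 13 markers of activated stellate cells and myofibroblasts, 4 were called higher and 4 lower. Their sums overlapped, at 16368 to 59964 in hypHSCs and 39968 to 67913 in qHSCs. By microscopy, the study judged its sorted hypHSCs to be very pure, and by staining it found desmin, cRBP1 and αSMA protein in them. Before sorting, it saw its macrophage and hepatocyte surface markers only on cells without fluorescent droplets. After sorting, it reported more labelling of CD36 and CD68 protein on hypHSCs than on qHSCs. Summed over 15 core macrophage markers, the counts were 1504141 to 1786374 in hypHSCs and 5620 to 104022 in qHSCs, with 14 called higher in hypHSCs, and all 12 markers of lipid-associated macrophages were called higher as well. Neutrophil markers, with 4 of 7 called higher, summed to 1861 to 8040 against 12.0 to 392, and cholangiocyte markers, with 3 of 6 called higher, to 483 to 3064 against 4.72 to 57.0. Of 12 Kupffer cell markers 5 were called higher and 2 lower, and their sums overlapped. *Id3*, 1 of the 2 called lower, weighs most in these sums, with means of 23820 in hypHSCs and 55139 in qHSCs. Within qHSCs, qHSC 1 and 4 held most of the Kupffer cell transcripts, with 9029 and 18766 normalized counts of *Clec4f* against 466.1 to 869.9 in the other 3. Hepatocyte markers were present in all libraries, with sums between 76771 and 271312 for hypHSCs and between 80848 and 181184 for qHSCs. The libraries held 30534719 to 47317028 reads on genes with a symbol, and the mitochondrial share of reads ran from 2.21% to 12.8% in the hypHSC libraries but from 1.25% to 1.61% in the qHSC libraries. The part that these differences play in the levels of the 6 genes was not tested, and in bulk RNA fewer cells of a type and less RNA per cell cannot be told apart.

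The reads can separate the members from each other. The longest identical coding stretch between any receptor pair was 14 bases, and between any ligand pair 13 bases, against reads of 59 bases. The shared stretches of the receptors and of the TAM ligands are shown because the comparisons within each family rest on telling these transcripts apart, with the identical bases in capitals and 15 bases on either side. They are read 5′ to 3′ along the coding sequence from the GRCm39 genome and the GENCODE annotation, and where the stretch crosses an exon junction the coordinates include the intron.
*Axl* and *Mertk* shared this stretch.
Axl, chr7:25463927-25465973 (minus strand): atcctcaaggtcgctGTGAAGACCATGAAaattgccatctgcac
Mertk, chr2:128621762-128624455 (plus strand): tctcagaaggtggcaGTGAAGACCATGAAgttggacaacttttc
*Axl* and *Tyro3* shared this stretch.
Axl, chr7:25472785-25472828 (minus strand): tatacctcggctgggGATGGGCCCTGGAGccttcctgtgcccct
Tyro3, chr2:119639965-119640008 (plus strand): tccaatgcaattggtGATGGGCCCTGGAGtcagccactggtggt
*Mertk* and *Tyro3* shared this stretch.
Mertk, chr2:128635023-128636402 (plus strand): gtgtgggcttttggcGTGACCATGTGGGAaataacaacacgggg
Tyro3, chr2:119643441-119643684 (plus strand): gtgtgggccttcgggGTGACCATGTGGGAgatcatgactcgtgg
*Gas6* and *Pros1* shared this stretch.
Gas6, chr8:13526216-13527067 (minus strand): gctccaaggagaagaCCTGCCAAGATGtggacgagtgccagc
Pros1, chr16:62720725-62720766 (plus strand): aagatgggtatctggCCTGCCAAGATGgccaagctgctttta
Stretches of read length shared with a gene outside the family were 6.04% of those of *Mfge8*, 1.62% of those of *Mertk* and 1.42% of those of *Gas6*, and under 0.01% of those of the other 3 genes. They came from *Gm73905*, *Gm39931* and *Tmem255b*, which overlap 8.82%, 3.02% and 2.80% of the exon bases on the opposite strand, and since the libraries kept no strand, reads from these overlaps cannot be told apart.

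Of the 6 members, *Mertk* and *Gas6* rose in hypHSCs, *Pros1* fell, and *Axl*, *Tyro3* and *Mfge8* did not pass the test. A DEG needed a log2 fold change of 1 or more in size together with an adjusted p no greater than 0.05 (limma on log2 of the normalized count + 1). By this rule 3 of 6 members were called, against 39.5% of the 14630 genes tested, of which 17.8% were called higher and 21.7% lower. The same 3 members had groups that did not overlap, as did 39.5% of the genes tested. A share of this size is close to the background, so the results lie in which members moved and in which direction. The median log2 fold change was −0.0041 over the 6 members and −0.20 over all genes tested. With libraries scaled to 3 qPCR reference genes (*Hprt*, *Pgk1* and *Actb*) that median was −1.12, and with equal totals −0.54. The share of calls that were higher was 45.0% as reported, 17.4% with the reference genes and 32.4% with equal totals.

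**Figure D1:**
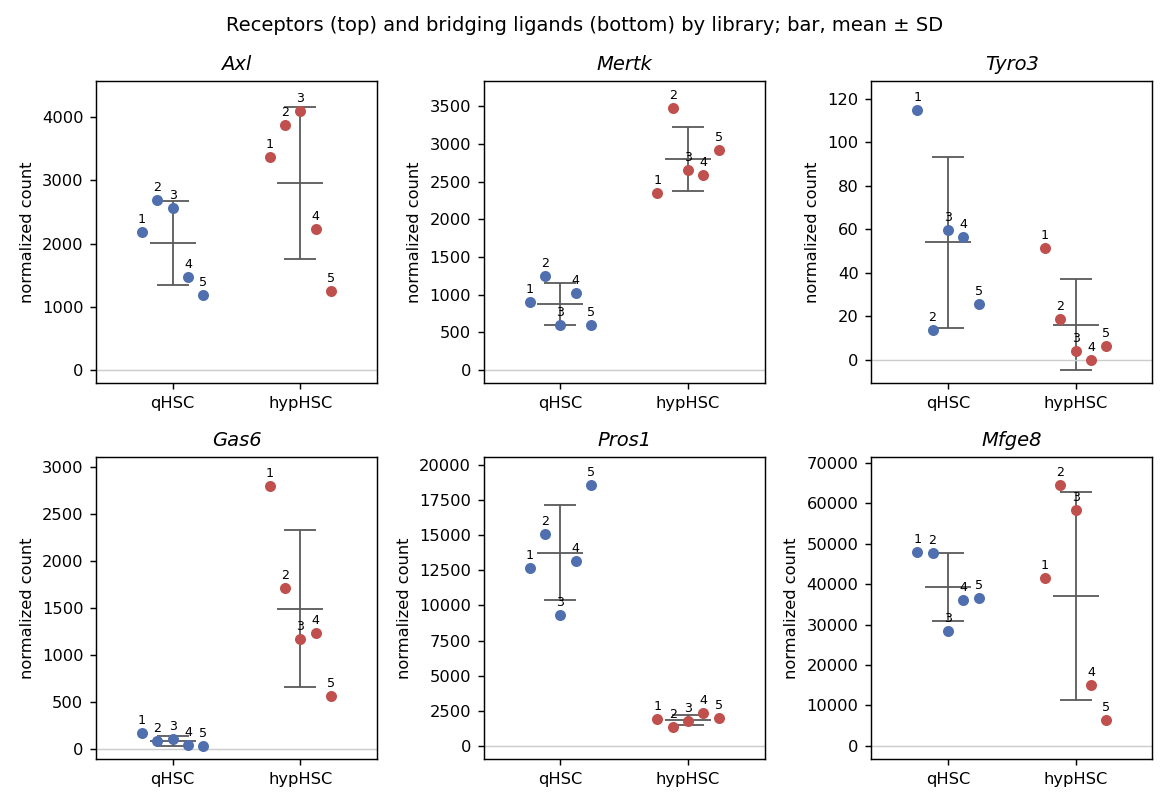
Normalized count (y axis, linear) of each gene in each library of qHSCs (blue) and hypHSCs (red), numbered by preparation, with grey bars for the mean ± SD (n = 5). All 5 hypHSC libraries lie above all 5 qHSC libraries for *Mertk* and *Gas6* and below them for *Pros1*, and the groups overlap for the other 3 genes.

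*Mertk* (chr2:128540833-128644927, plus strand) encodes the TAM receptor that macrophages use for the clearance of dying cells. Its normalized counts were 2353, 3476, 2663, 2595 and 2928 in hypHSC 1 to 5. In qHSC 1 to 5 they were 905, 1247, 597, 1022 and 604. The lowest hypHSC library lay above the highest qHSC library, and the hypHSC libraries lay close together, the highest being 1.48 times the lowest. The means were 2803 ± 429 (SD, n = 5) and 875 ± 279, a 3.31-fold rise (log2 fold change 1.73 ± 0.23 SE, 95% interval 1.22 to 2.23, adjusted p = 1.09e-04). The exact two-sided permutation test gave p = 0.00794, the smallest that 5 against 5 libraries can give. With the 3 reference genes the log2 fold change was 0.79, under the threshold, although 1.91 above the median of all genes under that scaling. With qHSC 1 and 4, the libraries with the most Kupffer cell transcripts, left out, it was 1.86 (adjusted p = 8.69e-04). An entry without a symbol that lies inside *Mertk*, outside its exons, held 1365 ± 242 normalized counts in hypHSCs and 347 ± 152 in qHSCs.

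*Axl* (chr7:25455925-25488158, minus strand) encodes the receptor whose main ligand is GAS6. Its counts in hypHSC 1 to 5 were 3373, 3875, 4088, 2228 and 1245. They were 2180, 2682, 2563, 1468 and 1184 in qHSC 1 to 5. The groups overlapped, with hypHSC 1, 2 and 3 above every qHSC library and hypHSC 4 and 5 within the qHSC range. The log2 fold change was 0.50 ± 0.35 SE (adjusted p = 0.264, exact permutation p = 0.222), with a 95% interval of −0.28 to 1.28, and it was −0.44 with the 3 reference genes. Neither no change nor a rise of more than 2-fold lies outside that interval. *Csf1r*, the macrophage growth factor receptor, was also lower in hypHSC 4 and 5, at 5275 and 1833 against 14052 to 24497 in the other 3, while *Cd68*, a macrophage lysosomal protein, was not, at 196974 and 179811 against 115258 to 160725. *Adgre1*, another of the 15 core macrophage markers, was at 5265 and 1113 in these 2 libraries against 5914 to 8100 in the other 3. The sums of the 15 markers were 1709668 and 1504141 against 1537741 to 1786374. *Lyz2* had the highest hypHSC mean of the 15, at 845672, and so weighs most in these sums. The part that macrophage RNA plays in the *Axl* counts was not tested.

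*Tyro3* (chr2:119628702-119648582, plus strand), the TAM receptor best known from the nervous system, was near the limit of detection. It had 38, 18, 5, 0 and 4 reads in hypHSC 1 to 5. In qHSC 1 to 5 it had 127, 16, 76, 66 and 34 reads. The 0 reads of hypHSC 4 allow up to 3.15 normalized counts (3 reads, counting error only). In normalized counts the means were 16.0 ± 20.9 and 54.1 ± 39.4, and the groups overlapped through hypHSC 1 and 2. The log2 fold change was −2.41 ± 1.0 SE (95% interval −4.61 to −0.20, adjusted p = 0.0681, exact permutation p = 0.0556). Without hypHSC 1 it was −3.08 (adjusted p = 0.0205) and passed the test, as it did with the hypHSCs at 12 weeks of diet only (−3.72, adjusted p = 0.00919), and DESeq2 and edgeR on the reads gave −1.76 (adjusted p = 0.128) and −1.77 (adjusted p = 0.183).

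*Gas6* (chr8:13515374-13544535, minus strand), which encodes the ligand of all TAM receptors, showed the largest change of the 6. Its counts in hypHSC 1 to 5 were 2793, 1709, 1165, 1233 and 557. They were 167, 86.1, 98.4, 35.1 and 32.97 in qHSC 1 to 5. The lowest hypHSC library held over 3 times the count of the highest qHSC library, and both groups varied widely, with the highest library 5.02 and 5.05 times the lowest. The means were 1491 ± 835 and 83.8 ± 54.8, an 18.5-fold rise on the log2(count + 1) scale (log2 fold change 4.21 ± 0.53 SE, 95% interval 3.06 to 5.36, adjusted p = 6.91e-05, exact permutation p = 0.00794). After 13 weeks of diet the 2 libraries had a mean of 2251, and after 12 weeks the 3 libraries had a mean of 985, with no test of this difference. The hypHSCs at 12 weeks only gave a log2 fold change of 3.71 (adjusted p = 9.98e-04). Of 11 short entries without a symbol inside *Gas6*, of 23 to 27 bases, 6 lie in its exons, and the 11 together held 920 ± 514 normalized counts in hypHSCs and 58.8 ± 46.0 in qHSCs. How reads on such an entry and on *Gas6* were assigned is not given in the sources used here.

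*Pros1* (chr16:62674668-62749703, plus strand), which encodes protein S, an anticoagulant cofactor of plasma as well as a TAM ligand, fell. Its counts were 1905, 1373, 1741, 2315 and 1951 in hypHSC 1 to 5. In qHSC 1 to 5 they were 12697, 15071, 9303, 13164 and 18564. The highest hypHSC library lay below the lowest qHSC library, and both groups were tight, with the highest library 1.69 and 2.00 times the lowest. The means were 1857 ± 343 and 13760 ± 3397, 7.33-fold lower in hypHSCs (log2 fold change −2.87 ± 0.21 SE, 95% interval −3.33 to −2.42, adjusted p = 1.34e-06, exact permutation p = 0.00794). Hepatocytes are the main known source of protein S in the liver, and the summed hepatocyte markers overlapped between the groups (given above), with 0 of 12 called in either direction. The highest hypHSC sums, 164640 and 271312, were in hypHSC 4 and 5, which also had the highest *Pros1* counts of the hypHSCs. In qHSC 1 to 5 the sums were 181184, 80848, 90738, 172289 and 152734. There the highest sum was in qHSC 1 and the highest *Pros1* count in qHSC 5. Of 17 quiescent stellate cell markers, 16 were called lower. The part that either kind of cell plays in the fall of *Pros1* was not tested.

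*Mfge8* (chr7:78783517-78798808, minus strand), which encodes the integrin-binding ligand, was the most abundant member. Its counts in hypHSC 1 to 5 were 41572, 64553, 58232, 14961 and 6289. They were 47907, 47713, 28512, 36168 and 36477 in qHSC 1 to 5. hypHSC 2 and 3 lay above every qHSC library and hypHSC 4 and 5 below every one, so the hypHSC range, 10.3 times from lowest to highest, enclosed that of the qHSCs, which was 1.68 times. The log2 fold change was −0.51 ± 0.57 SE (95% interval −1.77 to 0.75, adjusted p = 0.489, exact permutation p = 0.492). It was 0.018 without hypHSC 5, and with the 3 reference genes it was −1.45 (adjusted p = 0.0156) and passed the test. hypHSC 4 and 5 were the libraries with the fewest genes detected, 14949 and 14028 against 15821 to 16634 in the other hypHSC libraries. Markers of lipid-associated macrophages were not lower in them as a list, with sums of 1187341 and 1277448 against 1191971 to 1301069 in the other 3, although 1 of the 12, *Gpnmb*, was at 103226 and 43714 against 186374 to 337161. Sums of activated stellate cell and myofibroblast markers were lower in hypHSC 4 and 5, at 16875 and 16368 against 28820 to 59964. Sums of hepatocyte markers were higher in them, at 164640 and 271312 against 76771 to 108544. The part of these differences in the *Mfge8* counts was not tested.

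**Figure D2:**
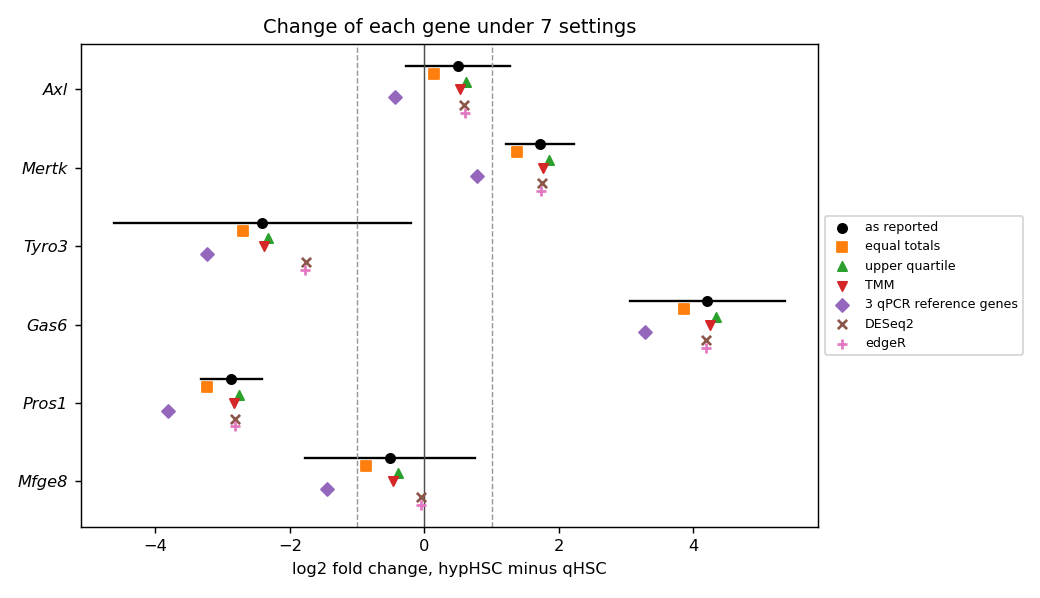
Log2 fold change, hypHSC minus qHSC (x axis), of each gene as reported (black circle, line for the 95% interval of limma) and under 4 other scalings and 2 count models, with dashed lines at −1 and 1. *Gas6*, *Pros1* and *Tyro3* stay beyond the dashed lines in each of the 7, *Mertk* does so in 6 of them, and *Axl* changes sign with the 3 reference genes. Of these settings, *Tyro3* also passed on adjusted p, which is not drawn, only with equal totals and with the 3 reference genes.

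The balance within each family was compared per length. Levels of different genes were compared as FPKM, the reads of a gene scaled for its exon length and for all reads on genes with a symbol. The summed FPKM of the 3 receptors was 22.0 ± 5.8 (SD, n = 5) in hypHSCs and 12.6 ± 3.5 in qHSCs. *Mertk* made up 56.6%, 62.99%, 55.4%, 69.0% and 81.7% of it in hypHSC 1 to 5. In qHSC 1 to 5 its share was 42.5%, 46.8%, 30.1%, 55.8% and 48.6%. Thus per exon length *Mertk* was the larger share of receptor RNA in all hypHSC libraries. The groups overlapped only through hypHSC 3 and qHSC 4. This order rests on the lengths used, 9180 bases for *Axl* and 4808 for *Mertk*, taken over all their annotated exons. Their coding lengths are 2664 and 2982 bases. In reads, *Axl* exceeded *Mertk* in hypHSC 1, 2 and 3 (2503, 3743 and 4916 against 1746, 3358 and 3202) but not in hypHSC 4 and 5. *Tyro3* never exceeded 0.888% of it in hypHSCs or 3.89% in qHSCs.

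The 2 TAM ligands gave shares that separated the groups. *Gas6* made up 62.8%, 58.9%, 43.5%, 37.96% and 24.7% of their summed FPKM in hypHSC 1 to 5. Its share was 1.48%, 0.652%, 1.20%, 0.305% and 0.204% in qHSC 1 to 5. The groups were far apart, and *Gas6* exceeded *Pros1* in hypHSC 1 and 2 and in no other library. These shares leave out the short entries without a symbol inside *Gas6*. How their reads were assigned is not given, so the libraries in which *Gas6* exceeds *Pros1* could differ. The sum of both ligands was lower in hypHSCs, at 13.6 ± 4.0 FPKM, than in qHSCs, at 66.3 ± 12.8 FPKM. As a log2 ratio per length, *Gas6* to *Pros1* was −0.29 ± 0.96 in hypHSCs and −7.37 ± 1.23 in qHSCs. These ratios are taken within a library, so its scaling hardly enters them. *Gas6* to *Mfge8* likewise did not overlap (−4.58 ± 0.99 against −9.30 ± 0.93), whereas *Pros1* to *Mfge8* (−4.30 ± 1.64 against −1.93 ± 0.35) and *Axl* to *Mertk* (−0.96 ± 0.75 against 0.26 ± 0.58) did.

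**Figure D3:**
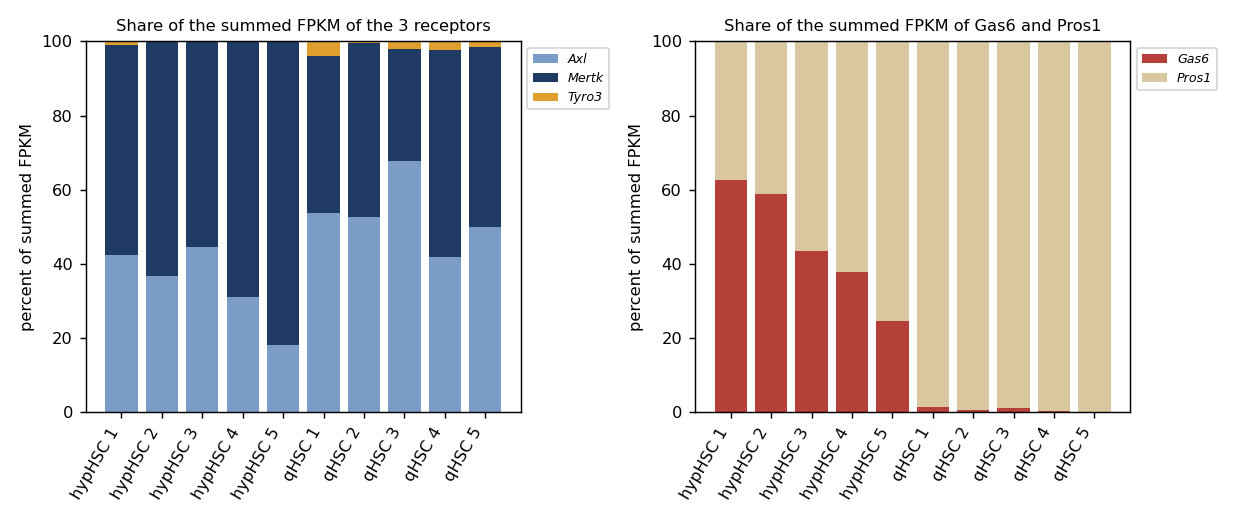
Percent of summed FPKM (y axis) taken by each receptor (left) and by *Gas6* and *Pros1* (right) in each of the 10 libraries (x axis). *Gas6* takes 24.7% to 62.8% of the ligand bar in hypHSCs and at most 1.48% in qHSCs.

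In order of level, hypHSCs had *Mfge8* at 196 ± 145 FPKM, *Mertk* at 13.96 ± 2.53, *Axl* at 7.98 ± 3.83, *Pros1* at 6.99 ± 1.12, *Gas6* at 6.59 ± 3.78 and *Tyro3* at 0.0582 ± 0.0761. *Axl*, *Pros1* and *Gas6* did not differ beyond their spread. The place of *Mertk* above *Axl* depends on the exon lengths used, as given above. The order in qHSCs was *Mfge8* at 251.98 ± 52.72, *Pros1* at 65.9 ± 12.9, *Axl* at 6.77 ± 2.41, *Mertk* at 5.56 ± 1.78, *Gas6* at 0.472 ± 0.315 and *Tyro3* at 0.251 ± 0.186 FPKM. There *Axl* and *Mertk*, and *Gas6* and *Tyro3*, did not differ beyond their spread. Ranked by FPKM within each library from the most abundant gene down, *Mfge8* stood at 94 to 179 in qHSCs and 96 to 1085 in hypHSCs. *Pros1* moved from ranks 417 to 790 in qHSCs to 2416 to 3439 in hypHSCs, and *Gas6* from 8871 to 12424 up to 1975 to 4811.

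Upstream of the genes that rose, the promoter sequence of *Mertk* and *Gas6* is shown because both were higher in every hypHSC library. The windows cover the 250 bases before the annotated start of the main transcript (GRCm39, GENCODE), printed only where no annotated exon lies.
Mertk, chr2:128540535-128540728 (plus strand): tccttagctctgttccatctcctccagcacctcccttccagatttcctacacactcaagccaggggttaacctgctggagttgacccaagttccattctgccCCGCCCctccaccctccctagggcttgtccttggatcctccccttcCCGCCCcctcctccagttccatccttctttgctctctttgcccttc
Gas6, chr8:13544825-13545074 (minus strand): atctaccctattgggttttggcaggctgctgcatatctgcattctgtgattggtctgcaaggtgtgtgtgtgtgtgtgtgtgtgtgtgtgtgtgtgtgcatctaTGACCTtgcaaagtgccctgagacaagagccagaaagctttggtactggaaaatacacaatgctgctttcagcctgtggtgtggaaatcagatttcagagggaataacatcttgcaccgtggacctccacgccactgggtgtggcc
The capitals in *Mertk* mark the GC box, searched as GGGCGG on both strands. In *Gas6* they mark the nuclear receptor half-site, searched as AGGTCA on both strands and present here on the minus strand of the gene, and no other window of the 6 held it. The whole window of *Mertk* held 3 GC boxes, 2 of them in the printed part, as many as those of *Tyro3* and *Mfge8*, and those of *Axl*, *Gas6* and *Pros1* held none. Over 21770 promoters of protein-coding genes, 36.3% held a GC box and 13.1% the half-site. None of the 6 windows held a TATA box (TATAAA, in 11.9% of all promoters). They held no AP-1 site (TGACTCA, in 4.02%) and no E-box of the TFEB family (CACGTG, in 6.26%) either. These matches describe letters only.

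Machinery that acts on the ligands and receptors themselves was measured by 3 short lists, whose members were drawn up from general knowledge. Of 5 genes linked to the γ-carboxylation and processing of such proteins, 1 was called higher and 3 lower. They differ in role, so this count gives no direction for γ-carboxylation itself, which was not tested. *Ggcx*, the γ-glutamyl carboxylase, fell from 2364 ± 573 normalized counts in qHSCs to 374 ± 206 in hypHSCs (log2 fold change −2.84 ± 0.40 SE, adjusted p = 1.49e-04). *Vkorc1*, which recycles vitamin K, fell less (−1.09 ± 0.23, adjusted p = 0.00209; not called by DESeq2 or edgeR), *Calu*, which encodes the calcium-binding protein calumenin of the secretory pathway, fell (−2.36 ± 0.49, adjusted p = 0.00228), and the propeptide protease *Furin* rose (1.03 ± 0.24, adjusted p = 0.00427). All 5 genes of sheddases and their regulators passed the test, 3 higher and 2 lower. *Adam10* and *Adam17*, which release receptor ectodomains, rose (1.6 ± 0.31, adjusted p = 0.00136, and 1.42 ± 0.22, adjusted p = 2.74e-04), whereas *Timp3*, an inhibitor of ADAM17, and *Rhbdf1*, which helps it mature, fell (−1.62 ± 0.46, adjusted p = 0.0132, and −3.45 ± 0.93, adjusted p = 0.00996). Under the 3 reference genes *Adam10*, *Adam17* and *Furin* were no longer called. *Furin* was under the fold threshold with equal totals (0.68), without hypHSC 2, hypHSC 5 or qHSC 1 (0.86 to 0.99) and without qHSC 1 and 4 (0.94), and *Timp3* lost its call without qHSC 1 and 4 by its adjusted p of 0.0535, at −1.63. Of 4 tested partners of MFG-E8, 1 was called higher and 1 lower: *Itgav* rose (1.15 ± 0.23, adjusted p = 0.00159; not called with the 3 reference genes or equal totals), *Itgb3* fell from 337 ± 239 to 7.41 ± 7.70 (−5.81 ± 0.84, adjusted p = 1.83e-04), and *Itgb5* was at 0.62 ± 0.23 (adjusted p = 0.0471), under the fold threshold, and at −0.32 with the 3 reference genes.

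Across 12 lists of efferocytosis genes, 122 of 130 genes were tested, and 49 were called higher and 22 lower, which is 58.2% against 39.5% of all genes tested. Their median log2 fold change was 0.38, and with the 3 reference genes 35 were called higher and 50 lower. Under that scaling 1472 of all 14630 genes tested were called higher and 6989 lower, so lower calls prevailed far more among all genes than in the lists. Of 9 direct phosphatidylserine receptors tested, 7 were called higher and 0 lower, with a median of 4.47, among them *Cd300lb* (6.53 ± 1.09, adjusted p = 5.40e-04) and *Cd300a* (5.64 ± 0.75, adjusted p = 1.13e-04), both myeloid receptors. *Timd4*, the phosphatidylserine receptor of Kupffer cells, did not pass (−3.14 ± 1.40, adjusted p = 0.0852), and its counts were 701 and 1720 in qHSC 1 and 4 against at most 61.4 in the other qHSC libraries. It was called lower by DESeq2 (−4.79, adjusted p = 7.12e-05) and edgeR (−4.78, adjusted p = 0.0165), with the 3 reference genes and without qHSC 2. Without qHSC 1 and 4 it was −0.95 (adjusted p = 0.524). Of 13 other engulfment receptors and opsonins 7 were called higher, led by *Cd36*, a scavenger receptor (10.05 ± 1.05, adjusted p = 1.95e-05), and *Lgals3*, which encodes the MERTK-binding lectin galectin 3 (8.29 ± 0.80, adjusted p = 1.09e-05). Of the genes in the 12 lists, 4 (*Cd14*, *Lgals3*, *Nr1h3* and *Timd4*) are also in the macrophage marker lists used here. Those lists are short, so this count does not show how many of the other genes are myeloid, as *Cd300lb* and *Cd300a* are.

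**Figure D4:**
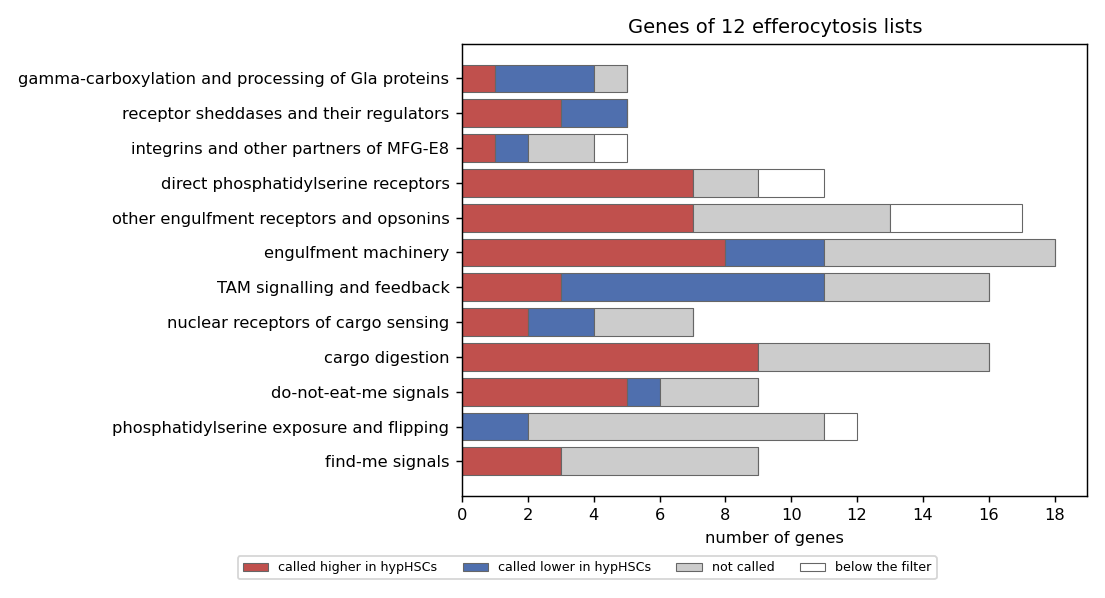
Number of genes (x axis) in each of 12 lists that were called higher in hypHSCs (red), called lower (blue), not called (grey) or below the filter (white). Receptors, opsonins and cargo digestion hold no blue, and TAM signalling holds 8 blue against 3 red.

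Of 16 genes of TAM signalling and feedback 8 were called lower and 3 higher, against 21.7% and 17.8% of all genes tested, with a median of −1.39. *Socs3*, a suppressor of cytokine signalling that TAM receptors induce, fell from 873 ± 279 to 131 ± 93 (−2.85 ± 0.40, adjusted p = 1.65e-04). *Socs1* had means of 12.0 ± 14.7 and 15.2 ± 11.9 and did not pass the test (adjusted p = 0.318). *Grb2*, an adaptor bound by the receptors, rose (2.78 ± 0.16, adjusted p = 2.82e-07), and so did *Plcg2*, a phospholipase of blood cells (5.20 ± 0.72, adjusted p = 1.38e-04).

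In the engulfment machinery 8 of 18 genes were called higher and 3 lower. The guanine nucleotide exchange factors *Vav1* and *Vav3* rose (4.01 ± 0.50, adjusted p = 6.87e-05, and 6.15 ± 0.80, adjusted p = 9.34e-05), and *Vav2* and the adaptor *Gulp1* fell (−3.18 ± 1.15, adjusted p = 0.0395, and −4.38 ± 1.03, adjusted p = 0.00469), although *Vav2* was not called by DESeq2 or edgeR and lost its call on leaving out any 1 of 6 libraries. Of 7 nuclear receptors of cargo sensing 2 were called higher and 2 lower. *Nr1h3*, the oxysterol receptor LXRα that induces *Mertk* in macrophages, rose from 700 ± 472 to 3236 ± 1151 (2.33 ± 0.43, adjusted p = 9.75e-04), with overlap of the groups through hypHSC 5 and qHSC 4. *Pparg* rose (7.40 ± 0.86, adjusted p = 4.07e-05) and *Rxra*, the shared partner of both receptors, fell (−1.77 ± 0.41, adjusted p = 0.00409). Of 16 genes of cargo digestion 9 were called higher and 0 lower, including the lysosomal lipase *Lipa* (2.95 ± 0.31, adjusted p = 1.78e-05) and *Acp5*, a lysosomal phosphatase (5.03 ± 0.51, adjusted p = 1.70e-05).

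The remaining lists concern phosphatidylserine exposure and the signals between a cell to be eaten or spared and the cell that eats. They include receptors for these signals as well as the signals themselves. Of 11 genes of phosphatidylserine exposure and flipping, 18.2% were called, 0 higher and 2 lower, the scramblase family gene *Plscr1* (−2.23 ± 0.31, adjusted p = 1.41e-04) and the flippase *Atp8b1* (−2.97 ± 0.41, adjusted p = 1.45e-04). Of 9 genes of do-not-eat-me signals 5 were called higher and 1 lower, with a median of 2.03. *Cd47*, the best known of them, had means of 2369 ± 1393 and 2360 ± 662 and did not pass the test (−0.14 ± 0.37, adjusted p = 0.770), while its receptor *Sirpa* rose from 31.8 ± 11.4 to 797 ± 597 (4.07 ± 0.73, adjusted p = 8.27e-04). Of 9 find-me genes 3 were called higher, 33.3% against 39.5% of all genes tested called in either direction, which is no more than the background. Among the 3 was the nucleotide receptor *P2ry6* (5.19 ± 0.71, adjusted p = 1.30e-04).

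By the root mean square difference of centred log2 values over the 10 libraries, among tested genes whose mean normalized count was 100 or more, the gene most like *Mertk* was *Cbl*, a ubiquitin ligase, at 0.214, followed by *Gk* (0.245) and *Mospd2* (0.246). Those most like *Pros1* were *Mtus1* (0.200), *Ahi1* (0.209) and *Ifih1* (0.273). *Mfge8* had the closest neighbours, *Wbp2* (0.0981), *Actr1a* (0.110) and *Sf3b4* (0.155), none of which was called. *Axl* lay nearest to *Trio* (0.175), *Trafd1* (0.231) and *Naa25* (0.234). *Gas6* had no near match, with *Sfn* at 0.515, *Cenpe* at 0.524 and *Svep1* at 0.527, and *Tyro3* had none either, with *5031426D15Rik* at 0.864, *Col27a1* at 0.893 and *Ptpn14* at 0.936. The 10 libraries share depth and group, so these values describe likeness only.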

How the data were processed

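RNA from 10 sorted preparations was sequenced as poly(A)-primed, unstranded libraries. Per the labels and the study's methods, the authors mapped reads to mm39 (GRCm39) with STAR, counted them per gene with featureCounts (Subread 1.5.0) and divided them by DESeq2 size factors. The deposited unit is this normalized count, a signal per gene. Multiplying each library by its own factor gave whole reads for 100% of values (within 0.007 reads), and depth, FPKM and the count models (DESeq2, edgeR) rest on these reads.

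Of 62322 entries, the 25233 with a symbol were used, and the 14630 that reached 10 normalized counts in 5 or more of the 10 libraries were tested. All 6 members passed this filter. Values were taken as log2(normalized count + 1), which understates the change of low genes, and compared with limma 3.58.1 (lmFit, eBayes with trend, R 4.3.3) and Benjamini-Hochberg adjustment over all genes tested. Exact two-sided permutation tests covered the 252 arrangements of 5 libraries against 5. Exon lengths, overlaps and sequences came from GENCODE on GRCm39. Ratios between members used log2(count + 1) less the log2 exon length.

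Alternatives changed the pseudocount, filter, scaling, tool (DESeq2 1.42.0, edgeR 4.0.16 quasi-likelihood), replicate block, diet time or entries used, or left out each library. Leaving out qHSC 1 and 4 together was added after seeing the data. The steps were tested on simulated data. The members and all lists were chosen with earlier results of these data known. Named list genes are up to 4 per list with the largest change among DEGs with a mean of at least 100 and groups that do not overlap, and 14 chosen by name. Not all genes that this rule names are printed, and 1 of them is not reported here. Intervals and detection limits of reads cover counting error only.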

Additional observations from a re-analysis of the deposited data

Results flagged for a closer look

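In 110 groups of 5 values (members, named list genes and ratios between members), 9 had 1 library standing apart from the other 4 by Dixon's test, which chance gives in about 1 of 20 groups. None was a member or a ratio between members. Among hypHSCs, *Adam10* was at 13948 normalized counts in hypHSC 5 (4014 to 6838 in the other 4), *Socs3* at 296 in hypHSC 1 (81.8 to 99.8), and *Cd24a* at 2183 in hypHSC 1 (179 to 590). In qHSC 4, the library with the most *Clec4f*, *Cd14* was at 9300.46 (881 to 2710), *Lilrb4a* at 4539 (240 to 1235), *Plcg2* at 132 (3.41 to 38.01) and *Rhbdf1* at 862, the lowest (1060 to 1120). *Vav3* was at 43.4 in qHSC 1 (0 to 8.99). *Socs1* was at 36.2 in qHSC 3 (6.74 to 11.8).

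Entries without a symbol inside the members were outside the comparisons. The 1 entry inside *Mertk* held 1365 normalized counts on average in hypHSCs against 347 in qHSCs, and the 11 inside *Gas6* held 920 against 58.8, with no overlap of the groups in either. Their source was not tested.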

How the results depend on the processing

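*Gas6* and *Pros1* were called in all 25 settings, the reported one included, with log2 fold changes of 3.28 to 4.52 and −3.81 to −2.75. *Mertk* was called in 24 of 25. Scaling to 3 qPCR reference genes, which shifted the median of all genes to −1.12, gave *Axl* −0.44, *Mertk* 0.79, *Tyro3* −3.24, *Mfge8* −1.45 and *Itgb5* −0.32, with 1472 genes called higher and 6989 lower, and 50 list genes called lower. *Tyro3* was also called with equal totals (−2.69) and with hypHSCs at 12 weeks only (−3.72), and could not be tested with a mean of at least 100. Including entries without a symbol gave 9291 calls, 3911 higher and 5380 lower, since more entries were tested. *Cd47* was 0.094 with DESeq2, 0.091 with edgeR and 0.21 at 12 weeks only. Leaving out 1 library gave *Tyro3* −3.08 to −1.65, *Mfge8* −0.82 to 0.018 and *Cd47* −0.40 to 0.043. The cause of these shifts was not tested, apart from the larger number of entries. The group differences of the log2 ratios between members moved by less than 1 SD with each library left out. Division by length cannot move them, since it adds the same constant in both groups. Among 43 named list genes, 996 of 1031 values kept their direction and their side of the threshold.

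Same-numbered preparations had correlations of 0.0082 to 0.129 between their deviations from the group means, and 1 of 5 matched its own number best, so the numbers do not pair the samples. On the recovered reads DESeq2 called 5861 genes and edgeR 5336. With the replicate number as a block, 5786 genes were called, against 5779, and *Axl* (0.50), *Mertk* (1.73), *Tyro3* (−2.41), *Gas6* (4.21), *Pros1* (−2.87) and *Mfge8* (−0.51) kept their calls. Depth limits *Tyro3* alone among the members, at 0 to 127 reads.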
